A study of Mus musculus with 4 samples.

Results

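Intraflagellar transport and BBSome genes were chosen by name from the expression tables of mouse pachytene spermatocytes. The choice took every symbol made of Ift or Bbs and a number, together with Ttc21a, Ttc21b, Ttc8, Ttc26, Ttc30b, Traf3ip1, Cluap1, Hspb11, Wdr19, Wdr35 and Fam161a. It gave 33 of the 19445 genes that had a value in any library, by a rule on names that uses no expression value. Earlier results of these data were known when the names were set, and Fam161a was named in them. By known function 7 of them belong to the IFT-A complex, 16 to IFT-B, 7 to the BBSome and 2 to the chaperonin-like proteins that help the BBSome to assemble. The remaining gene, Fam161a, encodes a microtubule-binding protein of the centriole and connecting cilium and belongs to neither complex. Hspb11 was kept, because the protein, despite its heat shock name, is a subunit of IFT-B.

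The cells were isolated from the testes of adult mice of the C57BL/6 background, as 2 libraries of the genotype Tcfl5+/+ (wild type) and 2 of Tcfl5+/- (heterozygote). The protein made from Tcfl5 is a transcription factor of the helix-loop-helix class, active in male germ cells. The comparison asks how expression in meiotic prophase differs when 1 copy of the gene is affected. The labels give neither the construction of the allele, nor the way the cells were isolated, nor the animals behind each library. P-values therefore measure the spread between these libraries, which may be technical. Values are FPKM, which correct read numbers for transcript length and for the size of the library, so that levels can be compared between genes.

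Intraflagellar transport builds and maintains cilia by moving trains of proteins along the axoneme. IFT-B is needed for outward travel with kinesin-2, IFT-A for the return with dynein-2, and the BBSome is an adaptor that carries membrane proteins on these trains. In the male germ line the same proteins are needed for the sperm flagellum, which is built in spermatids. Loss of several of them in the mouse gives short or absent flagella and infertile males.

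The tables gave no read counts, and the depth is unknown. In each library the commonest low value of genes with a single transcript of 900 to 1000 bases was 0.06 FPKM, and a single read would be worth that much if depths were alike. Values summed to 468130 to 492203 FPKM per library. Tcfl5 itself measured 248.7 and 237.7 FPKM in the wild type, replicates 1 and 2 in that order here and below, against 137.0 and 188.5 in the heterozygote. The genotypes did not overlap, and the log2 difference was -0.59 (adjusted p = 0.242, limma-trend). It became -0.37 without heterozygote replicate 1 and -0.82 without heterozygote replicate 2. All 12 markers of pachytene spermatocytes were listed in every library, led by Ldhc, the germ cell lactate dehydrogenase, at 3610 to 3858 FPKM. They summed to 5408 and 5634 FPKM against 5323 and 5596, and 8 had a negative log2 difference and 4 a positive one. At an unadjusted p under 0.05 (limma-trend) 2 were lower and 0 higher, where 5.57% and 7.63% of all genes tested were. The 2 were Ccna1, at 142.7 and 160.3 against 96.2 and 82.0 FPKM, and Adam2, with a log2 difference of -0.31. A difference in stage between the genotypes was not tested. Markers of other cells of the testis were present too. The 12 spermatid markers summed to 1567 and 679.3 FPKM against 2505 and 2044, and none of them was listed at 0. The 8 Sertoli cell markers summed to 444.1 and 293.0 against 423.1 and 149.5 FPKM, and the 6 Leydig cell markers to 529.2 and 332.4 against 575.1 and 309.4. The 8 spermatogonia markers summed to 38.1 FPKM at most and the 6 macrophage and blood markers to 2.48. In such bulk preparations fewer cells of a type and less RNA per cell cannot be told apart.

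All 33 genes had a value in all 4 libraries and all entered the test. Their levels, averaged over the libraries, ran from 1.02 FPKM for Bbs12 to 172.3 for Ift140, with a median of 37.1, where the median of the 13333 genes tested was 8.15. Of the 33, 31 lay above that median. Their order was close to the same in every library (Spearman's rho of 0.952 to 0.985 between libraries, a description over 33 genes of the same cells).

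**Figure D1:**
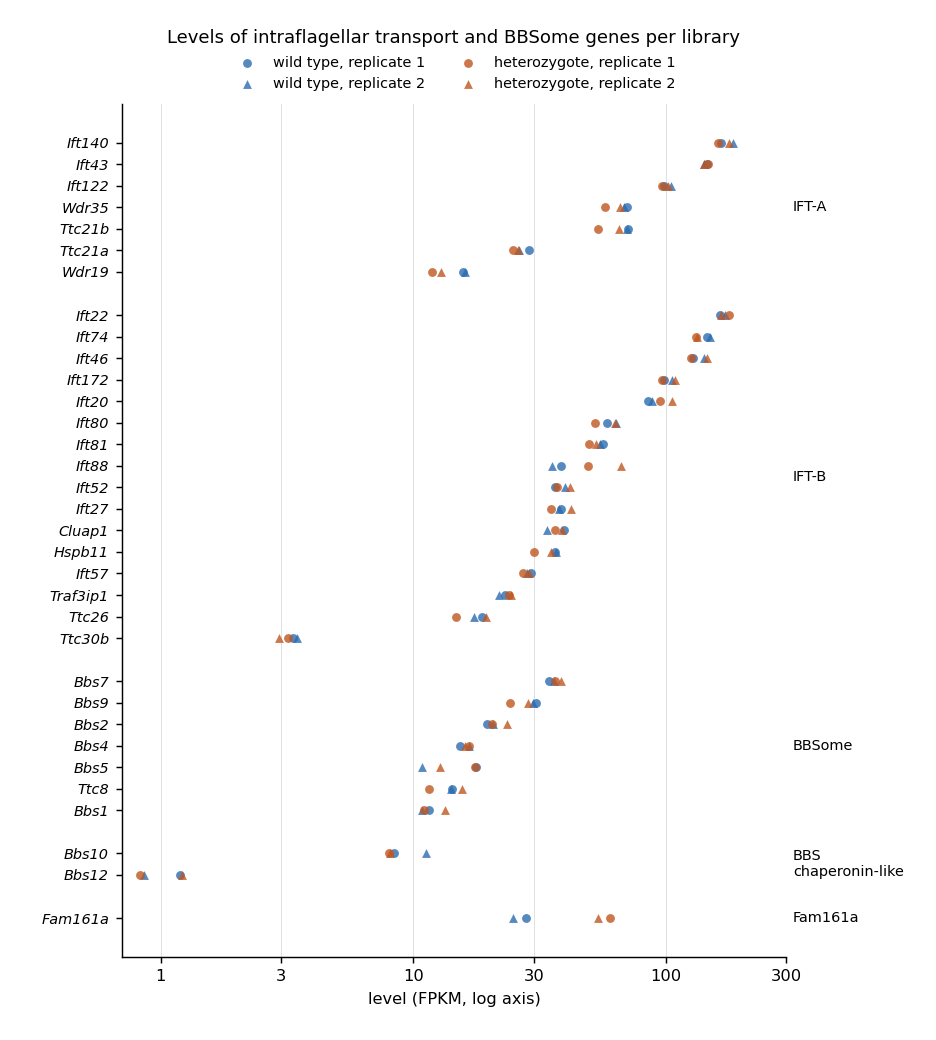
FPKM on a log axis of each gene (rows, grouped by complex and ordered by mean level) in the 4 libraries, with wild type in blue, heterozygote in orange, replicate 1 as circles and replicate 2 as triangles. The 4 points of most genes lie close together over a range of levels from 1.02 to 172.3 FPKM, while the genotypes are separated for Fam161a and Ift88.

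Among the IFT-A genes the core subunit Ift140 was the most abundant, at 166.0 and 184.5 FPKM in wild-type libraries and 161.1 and 177.7 in heterozygote libraries. Ift43, a small subunit outside the core, followed at 141.3 to 146.9 FPKM, below every value of Ift140. The core subunit Ift122 was at 96.95 to 104.7 FPKM, and Wdr35, a subunit with WD repeats, at 57.4 to 70.4. The core subunit Wdr19 was the least abundant of the complex, at 11.9 to 16.0 FPKM. The paralogs Ttc21a and Ttc21b encode versions of the same subunit. Ttc21b was at 54.0 to 70.8 FPKM in the 4 libraries and Ttc21a, which is linked to malformed sperm flagella in infertile men, at 24.8 to 28.8, so that their ranges did not meet.

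The IFT-B genes spanned a wider range. Ift22, which encodes a small GTPase of the core, was the most abundant at 164.0 and 170.9 FPKM in wild-type libraries and 177.9 and 165.6 in heterozygote libraries, and its values overlapped those of Ift140. Next came Ift74 and Ift46, core subunits at 139.9 and 135.0 FPKM on average, then Ift172 and Ift20 of the peripheral part at 102.4 and 93.6. The lowest was Ttc30b, at 3.35 and 3.45 FPKM in wild-type libraries and 3.19 and 2.95 in heterozygote libraries. It has near-identical paralogs beside it on chromosome 2, Ttc30a1 and Ttc30a2, which were at 28.6 to 33.2 and 101.2 to 145.2 FPKM. How the authors' counting divided reads among these 3 genes is uncertain, and so are their values.

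Partners that form stable pairs in the IFT-B particle were alike in level in some cases and not in others. Ift27, a small GTPase, and Hspb11, its partner, had means of 38.4 and 34.5 FPKM over the 4 libraries. The partners Ift57 and Cluap1 were at 28.3 and 37.1 FPKM, and the ranges of their values did not overlap. Both share exon bases with other genes, as given below. Ift74 was at 139.9 FPKM and its coiled-coil partner Ift81 at 53.5. Ift20, which also sits at the Golgi apparatus, was at 93.6 FPKM and its partner Traf3ip1 at 23.3. Neither of the last 2 pairs overlapped in any library.

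BBSome genes were lower than most genes of the transport particles. Of the 23 IFT genes, 16 had a mean above that of Bbs7, the most abundant of the 7 BBSome subunits, which was at 34.4 and 36.2 FPKM in wild-type libraries and 36.4 and 38.4 in heterozygote libraries. Bbs1, which links the BBSome to membranes through the GTPase Arl6, was the lowest at 11.5 and 10.8 against 11.0 and 13.4 FPKM. Between them lay Bbs9 at 28.3, Bbs2 at 21.1, Bbs4 at 16.2, Bbs5 at 14.7 and Ttc8 at 13.9 FPKM on average. Bbip1, the small subunit that the naming rule did not take, was at 51.9 to 58.5 FPKM, above every value of the 7. The chaperonin-like genes were below every BBSome subunit on average. Bbs10 was at 8.35 and 11.2 FPKM in wild-type libraries and 8.04 and 8.06 in heterozygote libraries, and Bbs12 at 1.19 and 0.860 against 0.830 and 1.21. Exons of Bbs12 share 32 bases with those of the centrin gene Cetn4 on the opposite strand, which was at 282.6 to 406.1 FPKM. No step that keeps the strand is named in the labels' protocols, so reads there cannot be told apart. Exons of Ift57, Cluap1 and Bbs4 overlap a gene on the opposite strand as well. Cluap1 also shares 510 exon bases with Gm20695, a protein-coding gene on the same strand that had no value here. How reads there were divided is uncertain.

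The genotypes differed little for most of these genes. By limma-trend with Benjamini-Hochberg adjustment over all genes, 0 of the 33 passed, as did 0 of all 13333 genes (0.0%). At an unadjusted p under 0.05 there were 3 of 33, Fam161a and Ift88, which were higher in the heterozygote, and Wdr19, which was lower, where 13.2% of all genes tested reached that p. With any 1 library left out, the log2 difference ran from 1.00 to 1.17 for Fam161a and from 0.41 to 0.83 for Ift88. That of Wdr19 ran from -0.39 to -0.28. Such fits leave 1 library in a genotype, so a stable size there does not show that an unadjusted p under 0.05 holds. The median log2 difference, heterozygote minus wild type on the scale of FPKM + 1, was -0.01 over the 33 genes and -0.02 over all genes tested. A positive difference was found for 16 and a negative one for 17. Bringing the FPKM sums to 1 value made the split 8 and 25. It was 12 and 21 with the upper quartile or with quantile normalization, and 17 and 16 with median ratios.

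The intervals bound what these libraries can show. Among the 31 genes that averaged 5 FPKM or more, 26 had a 95% interval of the log2 difference that lay wholly within 1.5-fold in either direction, against 57.0% of the tested genes at that level. A log2 difference of at least 0.5 in size was found for 2 of the 33, against 8.51% of all genes tested and 7.38% of those averaging 5 FPKM or more. The median size of the difference between genotypes was 0.10 over the 33 genes, 0.17 over all genes tested and 0.16 over those averaging 5 FPKM or more. The 33 genes lie high in level, as given above, and these contrasts were not matched for level beyond that limit. Over the 33 genes the median gap between replicates was 0.08 in the wild type and 0.16 in the heterozygote. That gap is between single libraries, while the difference between genotypes is between means of 2 libraries, so the 2 measures are unlike.

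**Figure D2:**
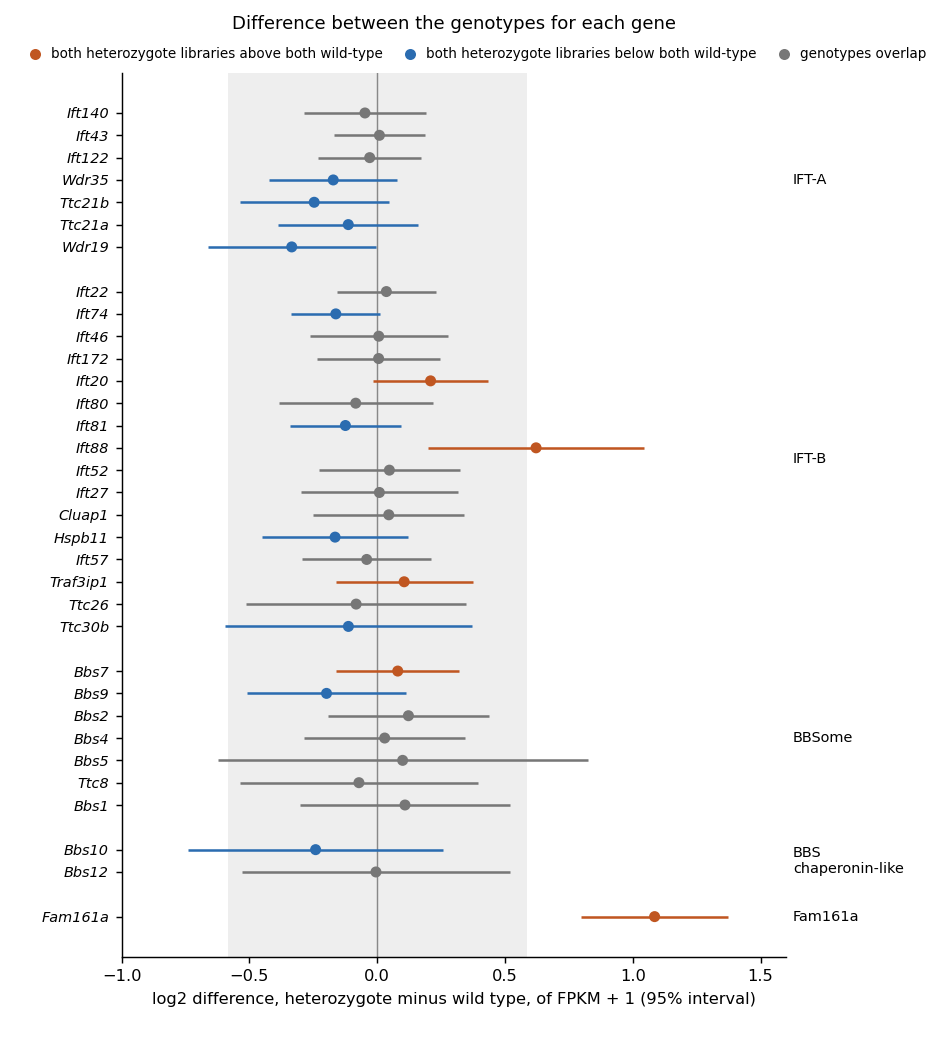
Log2 difference of FPKM + 1, heterozygote minus wild type, with its 95% interval from limma-trend (x axis) for each gene (rows), where the grey band marks 1.5-fold in either direction. Of the 33 intervals, those of Fam161a and Ift88 lie above 0, that of Wdr19 ends just below 0 at -0.01, and that of Bbs5, from -0.62 to 0.82, is the widest.

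Fam161a lies on chromosome 11 of GRCm38 from 23006692 to 23045743 on the plus strand, with 16 transcripts in the files. It is mutated in an inherited retinal degeneration, where its protein is found at the connecting cilium of photoreceptors. Since Fam161a was named in earlier results of these data, its difference is given here as a description and not as independent evidence. It measured 28.0 and 24.9 FPKM in wild-type libraries and 60.4 and 54.1 in heterozygote libraries. Both heterozygote libraries lay above both wild-type libraries by far more than replicates of a genotype differed. The means were 26.4 ± 2.21 and 57.2 ± 4.46 FPKM (SD, n = 2 each), 2.16-fold apart. The log2 difference was 1.08 with a standard error of 0.11 and a 95% interval of 0.80 to 1.37 (limma-trend, adjusted p = 0.116). Adjusted p was 0.0331 with scaling to median ratios, 0.0489 with scaling to the upper quartile and 0.0129 with quantile normalization, but 0.101 with equal FPKM sums and 0.228 with no filter on low values. With any 1 library left out, the log2 difference lay between 1.00 and 1.17 and adjusted p between 0.338 and 0.556. In these fits the lone library of a genotype is assumed to vary like the other genotype. The summed spermatid markers given above were also highest in the heterozygote pair, but the 12 genes differed. Prm1, Prm2, Tnp1 and Tnp2, which encode protamines and transition proteins, had log2 differences of 1.35 to 1.55 and an unadjusted p under 0.05. Tssk6 was higher in both heterozygote libraries at 0.77, and the other 7 overlapped between genotypes. Of those, Acrv1, Spaca1 and Catsper3 were at -0.41, -0.44 and -0.38, and Hils1, Odf1, Akap4 and Gapdhs at 0.16 to 0.41. The part of spermatid RNA in the level of Fam161a was not tested.

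Ift88 is a core IFT-B subunit, known from a mouse model of polycystic kidney disease with failed cilia, and needed for the sperm flagellum in the mouse. It lies on chromosome 14 from 57424069 to 57517936 on the plus strand. It measured 38.6 and 35.3 FPKM in wild-type libraries and 49.3 and 66.6 in heterozygote libraries. The genotypes did not overlap, but the heterozygote libraries differed from each other by more than the lower of them did from the wild type. The means were 36.9 ± 2.31 and 57.9 ± 12.2 FPKM (SD, n = 2 each), 1.57-fold apart, with a log2 difference of 0.62, a standard error of 0.16 and an adjusted p of 0.231 (limma-trend). The log2 difference was 0.41 without heterozygote replicate 2 and 0.83 without heterozygote replicate 1. An antisense gene, Ift88os, shares 67 exon bases with Ift88 in GENCODE M21. It was not analysed here, and its part in the value was not tested. The part of spermatid RNA was not tested either. Other subunits of the IFT-B core did not show a difference of this size. Ift52 and Ift46, which bind Ift88 in the core, were 36.5 and 39.8 against 37.2 and 41.8 FPKM, and 127.8 and 141.6 against 125.7 and 145.1 FPKM, and both overlapped between genotypes.

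Wdr19, on chromosome 5 from 65199658 to 65260415 on the plus strand, encodes a core IFT-A subunit. It was at 15.8 and 16.0 FPKM in wild-type libraries and 11.9 and 12.9 in heterozygote libraries. The wild-type libraries were nearly equal and both heterozygote libraries lay below them. The log2 difference was -0.33 with a standard error of 0.13 (adjusted p = 0.370, limma-trend). It ran from -0.39 to -0.28 when any 1 library was left out. That range is of sizes only and does not show that the unadjusted p under 0.05 holds. With scaling to median ratios, to the upper quartile or by quantiles the log2 difference was -0.33, -0.35 and -0.34, and its unadjusted p was no longer under 0.05.

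The promoter windows of these 3 genes are shown because they are the ones with the smallest p, 250 bases before to 50 after a transcription start, from RefSeq on GRCm38.p6, 5′ to 3′ on the gene's strand. Capitals mark matches, on either strand, to GTTGCC (the core of the site bound by RFX factors, which drive ciliary genes), to CACGCG, to the E-box CACGTG, and to the X-box, the longer RFX site in which that core is paired with its mirrored part. The Fam161a window, 1 of 2 that RefSeq gives for the gene, is chr11:23008097-23008396, the Ift88 window chr14:57423821-57424120 and the Wdr19 window chr5:65199446-65199745.
Fam161a: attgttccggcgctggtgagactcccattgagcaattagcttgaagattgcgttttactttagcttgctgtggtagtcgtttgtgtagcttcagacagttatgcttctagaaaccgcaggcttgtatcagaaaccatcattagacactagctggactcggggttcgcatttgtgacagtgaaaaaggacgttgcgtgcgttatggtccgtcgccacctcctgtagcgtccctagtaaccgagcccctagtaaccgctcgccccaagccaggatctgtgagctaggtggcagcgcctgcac
Ift88: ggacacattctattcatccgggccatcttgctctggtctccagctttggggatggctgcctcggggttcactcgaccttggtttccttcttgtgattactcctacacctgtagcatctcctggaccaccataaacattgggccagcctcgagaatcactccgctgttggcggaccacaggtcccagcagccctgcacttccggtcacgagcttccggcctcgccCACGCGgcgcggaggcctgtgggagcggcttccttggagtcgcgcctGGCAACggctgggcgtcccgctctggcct
Wdr19: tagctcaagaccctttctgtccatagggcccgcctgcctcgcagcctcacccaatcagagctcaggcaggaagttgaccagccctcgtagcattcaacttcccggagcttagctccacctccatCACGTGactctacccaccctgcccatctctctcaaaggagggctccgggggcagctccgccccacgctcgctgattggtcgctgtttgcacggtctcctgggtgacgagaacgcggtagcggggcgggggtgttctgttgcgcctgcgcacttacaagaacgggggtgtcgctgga
The Ift88 window held CACGCG with its first base at -26 and the reverse complement of GTTGCC at 22, counted from the start. The Wdr19 window held CACGTG at -126, and neither window of Fam161a held a match.

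Promoter windows were found for 29 of the 33 genes, 30 windows in all. GTTGCC or its reverse complement was in 12 of the 30 windows (40.0%), against 1896 of the 13568 windows of genes tested and 12.5% of all 32851 windows. The X-box was in 3 of 30, against 2.45% of windows of genes tested and 1.98% of all windows, and each of these 3 matches also contains GTTGCC. They are shown whole, since they hold the letters of a known ciliary promoter site.
Bbs7: GTTGCCTTGGAAAC
Ttc26: GTTGCCGTGGAAAC
Ift57: GTTGCCTGGTAAC
Their first bases lay at -121, -33 and -60. Bbs7 was at 35.3 ± 1.27 and 37.4 ± 1.46 FPKM in the wild type and the heterozygote, Ttc26 at 18.0 ± 0.919 and 17.1 ± 3.31 and Ift57 at 28.8 ± 0.651 and 27.9 ± 1.17 (SD, n = 2 each). CACGCG was in 5 of 30 windows (16.7%), against 15.9% for genes tested and 9.27% for all, and CACGTG in 3, against 9.56% and 7.15%. A match is a description of letters in a window and not a binding site.

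A wider view comes from asking for which genes the genotypes did not overlap. The heterozygote pair lay wholly above or wholly below the wild-type pair for 15 of the 33 genes, 5 higher and 10 lower, where 42.6% of all genes tested did so, 23.6% higher and 19.0% lower. The total is close to that background. With scaling to median ratios the count was 4 and with scaling to the upper quartile 7. The share of all genes was not taken under these scalings, so whether the drop is particular to the 33 genes is not known. The count was 23 without wild-type replicate 1 and 22 without wild-type replicate 2. It was 24 without heterozygote replicate 1 and 27 without heterozygote replicate 2. In these cases fewer pairs need to differ, and 65.7% to 76.1% of all genes met the condition.

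By complex, differences were mostly negative in IFT-A and divided in IFT-B. Of the 7 IFT-A genes, 6 had a negative log2 difference, where 6970 of the 13333 genes tested did, and the median was -0.11. Both heterozygote libraries were lower for 4 of the 7 (Wdr19, Ttc21b, Wdr35 and Ttc21a), where 19.0% of all genes tested were. Ttc21b was at 70.8 and 70.3 FPKM in wild-type libraries and 54.0 and 65.1 in heterozygote libraries. Ttc21a was at 28.8 and 26.3 against 24.77 and 26.03 FPKM, with intervals of the log2 difference of -0.54 to 0.05 for Ttc21b and -0.39 to 0.16 for Ttc21a. The median of the complex ran from -0.18 to -0.08 when any 1 library was left out, with 5 of 7 genes negative without wild-type replicate 2 or heterozygote replicate 1. All 7 were negative when FPKM sums or upper quartiles were made equal or quantiles matched, but equal sums also moved the median of all genes tested to -0.06. None of the 7 passed the adjusted test, and the smallest unadjusted p was that of Wdr19.

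IFT-B had a median log2 difference of 0.01 over 16 genes, 9 positive and 7 negative, and the split turned to 3 and 13 with equal FPKM sums, 6 and 10 with the upper quartile and 5 and 11 with quantile normalization. The median ran from -0.08 without heterozygote replicate 2 to 0.09 without heterozygote replicate 1. Besides Ift88, the genotypes did not overlap for Ift20 and Traf3ip1, which were higher in the heterozygote, and for Ift74, Ift81, Hspb11 and Ttc30b, which were lower. Ift20 was at 85.2 and 88.2 FPKM in wild-type libraries and 95.1 and 106.0 in heterozygote libraries. Ift74 was at 145.6 and 150.1 against 131.5 and 132.6 FPKM. Their intervals of the log2 difference, -0.02 to 0.43 and -0.34 to 0.01, both contained 0. The BBSome had a median of 0.08 over 7 genes, 5 positive and 2 negative, with 4 and 3 when FPKM sums were made equal or when heterozygote replicate 2 or either wild-type library was left out. Bbs7 lay higher and Bbs9 lower in both heterozygote libraries, and the other 5 overlapped. For the chaperonin-like genes, Bbs10 had an interval of -0.74 to 0.26 and Bbs12 of -0.53 to 0.52. That of Bbs10 reached beyond 1.5-fold lower. Bbs12 averaged 1.02 FPKM, where adding 1 to FPKM shrinks differences, so its interval does not bound the fold difference of FPKM.

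**Figure D3:**
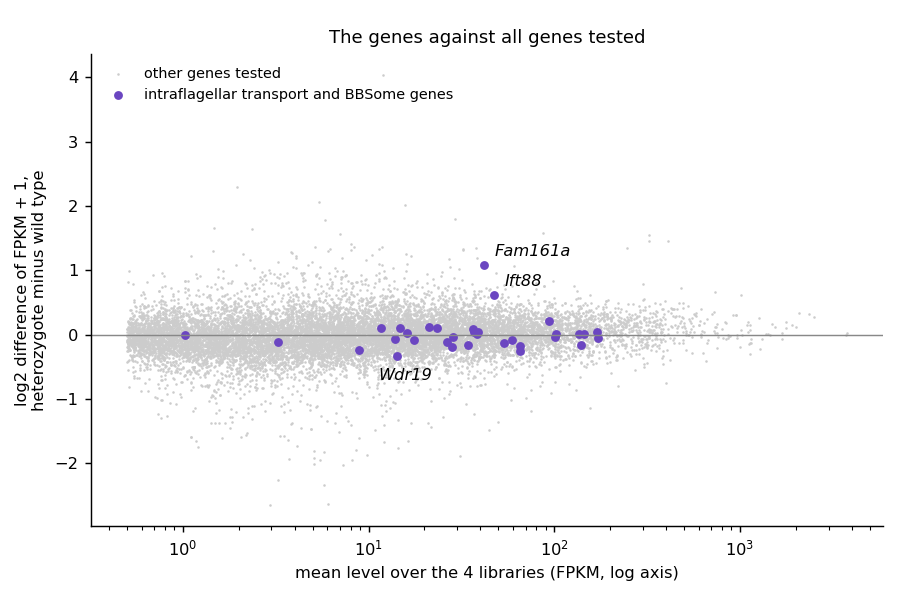
Log2 difference of FPKM + 1, heterozygote minus wild type (y axis), against the mean level over the 4 libraries in FPKM (log x axis) for the 13333 genes tested, with the 33 genes in purple and the others in grey. Fam161a at 1.08 and Ift88 at 0.62 stand above the rest of the 33, which lie between -0.33 and 0.21.

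The libraries also differed by replicate number in a way that most of these genes did not share. Replicate 2 was below replicate 1 in both genotypes for 43.9% of all genes tested but for 3 of the 33, and above it in both for 20.1% of all genes but for 13 of the 33. This was not particular to the 33 genes. Of the 65 other ciliary genes described below, 30 were above and 18 below. Their lists ran from 8 above and 1 below of 16 transition zone genes to 2 and 4 of 8 transcription factors. The 13 of the 33 included Ift140, Ift172, Ift46, Ift80, Ift122 and Ift52. Ift80, a peripheral IFT-B subunit, was at 58.6 and 63.4 FPKM against 52.5 and 62.8. The 3 that were lower in replicate 2 were Fam161a, Ift43 and Bbs5. Bbs5, which binds phosphoinositides for the BBSome, was at 17.7 and 10.8 FPKM against 17.5 and 12.7. It had the widest gap between replicates of the 33 genes, 0.67 on the log2 scale, and its genotypes overlapped. Markers of Sertoli cells, of Leydig cells and of spermatids also had lower sums in replicate 2 of each genotype, as given above, and their part in the level of Bbs5 was not tested.

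**Figure D4:**
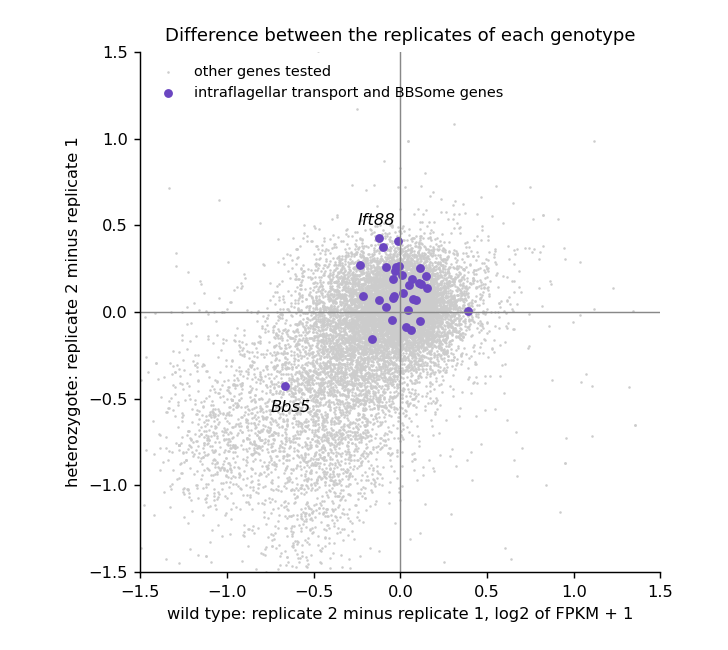
Replicate 2 minus replicate 1 on the log2 scale of FPKM + 1 in the wild type (x axis) and the heterozygote (y axis) for the genes tested, with the 33 genes in purple, and 100 of the genes tested outside the axes. Most of the 33 lie near the centre, away from the grey tail of genes lower in replicate 2 of both genotypes, in which Bbs5 falls.

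Other genes of the ciliary transport system were taken from 6 lists of 65 genes, of which 61 were tested. By limma-trend 0 of them passed, 4 were higher and 4 lower at an unadjusted p under 0.05, where 7.63% and 5.57% of all genes tested were, and the median log2 difference was -0.02. Among 9 genes of the motors the median was -0.07 and 0 had an unadjusted p under 0.05. Kif3b, a motor subunit of kinesin-2, was at 73.8 and 80.6 against 67.1 and 66.4 FPKM, and Tctex1d2, a light chain of dynein-2, at 212.8 and 220.1 against 202.1 and 206.1. Dync2h1, the heavy chain of dynein-2, was at 23.7 and 19.6 against 21.2 and 22.3 FPKM, and overlapped between genotypes.

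Among the 9 other IFT-B genes and regulators, 1 was lower at that p. It was Ttc30a2, at 125.2 and 145.2 FPKM in wild-type libraries and 101.2 and 109.2 in heterozygote libraries (log2 difference -0.36), a gene whose value is uncertain as said above. Arl3, a GTPase that releases lipid-modified cargo in cilia, was at 327.2 and 338.4 against 383.8 and 363.1 FPKM. Among 12 other BBSome and Bardet-Biedl genes, Rab3ip, the exchange factor that activates Rab8, was at 54.2 and 57.3 against 70.8 and 76.6 FPKM, with a log2 difference of 0.40 (adjusted p = 0.191, limma-trend). Pcm1, the scaffold of centriolar satellites, was at 51.7 and 53.2 against 42.4 and 44.9 FPKM, with a log2 difference of -0.26. Arl6, the GTPase that recruits the BBSome, was at 26.6 and 27.1 FPKM in wild-type libraries and 26.6 and 27.0 in heterozygote libraries.

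The transition zone, the gate at the base of the cilium, held the widest differences of these lists. Of 15 genes tested, 3 were higher and 1 lower at an unadjusted p under 0.05, where 7.63% and 5.57% of all genes tested were. The genotypes did not overlap for 6 that were higher and 2 that were lower, where 23.6% and 19.0% of all genes did not. Tmem231 was at 18.3 and 19.6 FPKM in wild-type libraries and 27.7 and 33.3 in heterozygote libraries, 1.61-fold apart (adjusted p = 0.177, limma-trend). Tmem237 was at 30.7 and 31.8 against 21.02 and 21.42 FPKM, 1.47-fold lower in the heterozygote (adjusted p = 0.166). Both encode membrane proteins of the transition zone, and they differed in opposite directions. The 11 genes of the centriole and connecting cilium had a median log2 difference of -0.05. Poc5 was at 27.2 and 29.0 against 21.2 and 23.6 FPKM, and Poc1a at 26.7 and 22.2 against 28.3 and 34.1. Fam161b, the paralog of Fam161a, was at 18.0 and 20.4 against 18.6 and 20.2 FPKM and overlapped, with a log2 difference of 0.02 and an interval of -0.31 to 0.34.

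Of 8 transcription factors of ciliary genes, 5 were tested and 0 had an unadjusted p under 0.05, where 13.2% of all genes tested did. With 5 genes that count says little. Rfx2, which drives flagellar genes in spermatids, was at 139.1 and 153.7 FPKM in wild-type libraries and 134.9 and 144.4 in heterozygote libraries. Rfx1 was at 10.8 and 5.03 against 7.46 and 4.12 FPKM and Foxj1, the regulator of motile cilia, at 15.7 and 7.46 against 14.3 and 5.67. Both were lower in replicate 2 of each genotype, by more than the genotypes differed. Rfx3 was at 1.93 and 1.23 against 1.33 and 1.11 FPKM.

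**Figure D5:**
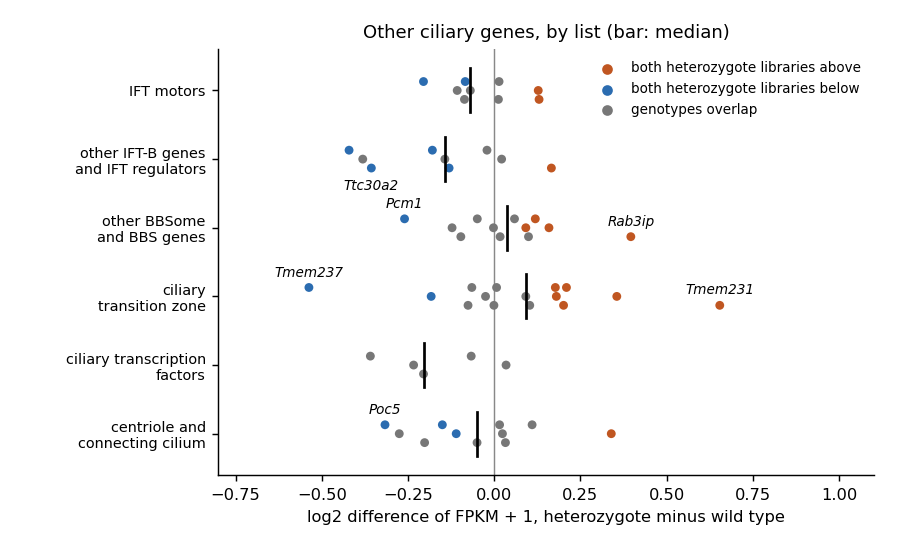
Log2 difference of FPKM + 1, heterozygote minus wild type (x axis), of the 61 other ciliary genes tested, 1 point per gene in 6 lists (rows), with the list median as a bar and colours for whether the genotypes overlap. The medians run from -0.21 to 0.09, and Tmem231 and Tmem237 in the transition zone lie farthest from 0 on either side.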

How the data were processed

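Polyadenylated RNA of 4 libraries of pachytene spermatocytes was read on a BGISEQ-500 instrument in single-end runs, 50 bases each, per the labels' protocols. The authors deposited 1 table of FPKM per library, per the file headers, with 2 decimals. HISAT2 2.0.4, Bowtie2 2.2.5 and RSEM 1.2.12 with GRCm38 (mm10) are listed per the submitters' processing notes, and their roles are not given in the sources used here.

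Tables were joined by Entrez identifier. For every library, 1 row naming no gene and 1593 genes with no value were left out. Depth is unknown, since no counts are given. limma-trend (limma 3.58.1, R 4.3.3) was fitted to log2(FPKM + 1) of 13333 genes averaging 0.5 FPKM or more, on genotype alone. Tests were two-sided with Benjamini-Hochberg adjustment and a threshold of 0.05. FPKM is relative to the whole library, so that more of an abundant transcript means less of the rest, and the pseudocount understates differences of low genes. With 2 libraries against 2, no exact permutation test can reach 0.05, and none was run. Alternatives were another pseudocount, other filters, a threshold of 0.1, 4 scalings, the replicate number as a block, a robust fit, leaving out each library, and leaving out Hspb11 and Fam161a. Promoter letters came from RefSeq (GRCm38.p6) and exon overlaps from GENCODE M21 on GRCm38. Python 3.11.15 and pandas 2.3.3 were used.

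Members and lists were chosen with earlier results of these data known. Values in every library were given for members past an unadjusted p of 0.05 whose genotypes did not overlap, the most and least abundant member of each complex, Ttc21a, Ttc21b, Fam161a and Tcfl5, and up to 2 genes of smallest p per list. Further genes were named for their role or after their values were seen. Of the 150 list symbols, 148 were found by symbol and 2 by a synonym.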

Additional observations from a re-analysis of the deposited data

How the results depend on the processing

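With genotype as the only term 0 genes passed in the fit reported and 0 with a pseudocount of 0.1, either other filter, scaling to an equal sum, a robust fit or without any 1 library (0 to 0). Scaling to median ratios called 65 genes, to the upper quartile 41 and quantile normalization 135, and in each 1 of the 33 genes was called, Fam161a. The replicate number as a block called 1213 genes, among them 2 of the 33, Fam161a (adjusted p = 2.32e-05) and Ift88 (adjusted p = 0.0068), and Tcfl5 had an adjusted p of 0.00339. In that fit 5 of the 33 had an unadjusted p under 0.05, where 3090 of the 13333 genes tested did. Deviations from the genotype means correlated at 0.529 between libraries of the same number, but the labels do not say whether a number marks a shared day of preparation. Whether the libraries are paired is therefore not known, and the fit without the block was kept. At a threshold of 0.1 the calls were 0 of all genes and 0 of the 33. Among the 33, 1 to 3 had an unadjusted p under 0.05 without 1 library and 1 without wild-type replicate 2. Their median log2 difference ran from -0.0826 (without heterozygote replicate 2) to 0.0223 without 1 library. The genotypes did not overlap for 4 genes with median ratios, 7 with the upper quartile and 22 to 27 without 1 library, where fewer libraries are compared. For these scalings the share of all genes was not taken. Small log2 differences turned sign. Without 1 library Bbs1 ran from -0.0221 to 0.239, Bbs12 from -0.1413 to 0.1309, Ift140 from -0.1238 to 0.0273 and Ift22 from -0.0157 to 0.0868. Bbs12 was 0.0036 with median ratios and 0.0868 with quantile normalization, and Ift22 was -0.0163 with equal FPKM sums and -0.0189 with quantile normalization. The causes were not tested. Depth is unknown, so no counting error can be given.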
